A study of Mus musculus with 24 samples.

Results

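Mitochondrial ribosomal proteins are the nuclear-encoded protein subunits of the ribosome that works inside mitochondria, and their genes were taken as all genes whose array symbol begins with Mrpl or Mrps. The array held 76 such genes among 16590 named genes, 47 with an Mrpl symbol and 29 with an Mrps symbol. By the structure of the ribosome, 49 belong to the large subunit, which includes Mrps18a and Mrps30 despite their names, 26 belong to the small subunit, and Mrps36, a subunit of the 2-oxoglutarate dehydrogenase complex, belongs to neither. A probe was used where its detection p was under 0.01 on at least 4 arrays, and the brightest such probe stood for its gene. This left 71 measured members, 46 of the large and 25 of the small subunit, of which 68 were detected on all 24 arrays. Mrpl39 was detected on 17 arrays, Mrpl45 on 13 and Mrpl15 on 12, and the 5 remaining members (Mrpl19, Mrpl21, Mrpl32, Mrps14 and Mrps36) were detected on no array, so no member lay near the limit of 4 arrays.

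The series profiled whole brain tissue of mice at postnatal day 21 on Illumina bead arrays, in 6 groups of 4 arrays. Nestin THAP1 knockout cerebellum, cortex and striatum were each set against Nestin control tissue of the same region. The design text speaks of 4 conditional knockout mice and 4 wild-type mice, while the sample titles call the second genotype Nestin controls, and whether they carry the Cre transgene is not stated there. Nestin is a gene of neural progenitors whose promoter is commonly used to delete genes in neurons and glia, so blood vessels and microglia are not expected to lose the gene. THAP1 binds DNA through a zinc finger and regulates transcription, and mutations of the human gene cause an inherited dystonia. No label says which arrays came from the same mouse, so p-values measure the spread between arrays. With 4 mice and 12 arrays per genotype, arrays of different regions would share mice, which no fit here takes into account, so the p of a mean over regions can be too small and the p of a comparison of regions too large.

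The mitochondrial ribosome translates the few messenger RNAs of the mitochondrial genome, all of which code for subunits of the respiratory chain and the ATP synthase. Its RNAs are made in the mitochondrion, but every protein subunit is encoded in the nucleus, made in the cytosol and imported. Some subunits descend from bacterial ribosomal proteins and others are found only in mitochondria. The small subunit reads the messenger RNA, and the large subunit joins amino acids and feeds the new chain into the inner membrane. Brain tissue depends on oxidative phosphorylation, and inherited defects of mitochondrial translation often affect the human nervous system.

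Arrays had a mean signal of 287 to 570, and on each array 47.2 to 54.5% of probes were detected. Of 3 Thap1 probes, one was detected on 0 of 12 knockout arrays and on 8 of 12 control arrays, another on 1 of 12 knockout and 10 of 12 control arrays, and the remaining probe on 12 of 12 knockout and 10 of 12 control arrays. This last probe was brighter in knockouts, at 6.14 in knockout and 5.02 in control cerebellum, 6.15 and 5.33 in knockout and control cortex, and 5.70 and 5.30 in knockout and control striatum (mean normalized log2 intensity), and where the probes lie relative to the deleted part was not analysed here. Markers of mature oligodendrocytes, the cells that make myelin, had a median knockout minus control difference of -0.22 on the log2 scale in cerebellum, -0.74 in cortex and -1.02 in striatum, and 0, 6 and 8 of 9 of them were past the threshold (with median scaling of the arrays 0, 0 and 5). None of the measured neuron, astrocyte and microglia markers (6, 6 and 5 genes) was past it in any region. The part of this difference in cell markers in the values below was not tested, and in bulk tissue fewer cells of a type and less RNA per cell cannot be told apart.

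Promoter windows of RefSeq (build GRCm38.p6, from 250 bases before to 50 bases after the annotated start) were matched for 67 of the 76 members. The windows of 3 genes are shown, since Mrpl47 was the only member past the threshold in a knockout comparison, Mrps15 had the largest knockout difference, and Mrps11 shares its promoter with a gene of the other subunit. Capitals mark matches, on either strand, to motif letters of factors known for housekeeping and mitochondrial promoters (the palindromic NRF1 motif, CCGGAAG for ETS factors such as GABP, AAGATGGC for YY1, GGGCGG for Sp1) and to TNNNGGCA, the core letters of the sequence bound by the THAP1 zinc finger.
Mrpl47, minus strand, chr3:32736706-32737005: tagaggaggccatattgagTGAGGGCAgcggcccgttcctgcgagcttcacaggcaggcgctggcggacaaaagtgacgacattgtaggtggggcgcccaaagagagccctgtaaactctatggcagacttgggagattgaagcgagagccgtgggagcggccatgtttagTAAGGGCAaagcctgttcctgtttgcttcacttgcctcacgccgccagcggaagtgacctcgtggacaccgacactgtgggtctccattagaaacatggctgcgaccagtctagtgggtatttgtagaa
Mrps15, plus strand, chr4:126046678-126046977: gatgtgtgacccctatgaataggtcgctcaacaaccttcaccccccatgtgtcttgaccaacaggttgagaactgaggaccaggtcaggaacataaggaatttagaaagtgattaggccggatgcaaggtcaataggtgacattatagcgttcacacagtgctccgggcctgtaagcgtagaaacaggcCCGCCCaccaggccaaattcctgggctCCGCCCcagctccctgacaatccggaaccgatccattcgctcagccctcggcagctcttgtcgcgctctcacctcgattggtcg
Mrps11, plus strand, chr7:78782881-78783180: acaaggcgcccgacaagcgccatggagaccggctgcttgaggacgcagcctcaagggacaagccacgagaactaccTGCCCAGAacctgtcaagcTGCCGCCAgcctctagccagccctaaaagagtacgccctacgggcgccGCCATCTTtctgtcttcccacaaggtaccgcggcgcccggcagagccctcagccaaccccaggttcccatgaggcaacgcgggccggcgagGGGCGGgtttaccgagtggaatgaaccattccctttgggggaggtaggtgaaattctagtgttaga

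The Mrpl47 window held 2 matches to the THAP1 core letters, TGAGGGCA beginning 231 bases and TAAGGGCA beginning 79 bases upstream of the start, and no match to the other motifs. The Mrps15 window held only 2 Sp1 matches, 61 and 34 bases upstream. In the Mrps11 window a YY1 match lay 107 bases upstream, beside 2 THAP1 core matches and 1 Sp1 match. No 2 of these matches overlapped one another. Over all 73 windows of the members, the ETS letters were present in 35.6%, the YY1 letters in 16.4% and the NRF1 letters in 16.4%. Among windows of all genes tested the shares were 15.2%, 4.08% and 9.21%, and among all RefSeq promoters 8.86%, 2.75% and 4.6%. The THAP1 core letters are short and common, with a share of 35.6% among the members, 39.1% among genes tested and 42.0% among all promoters. Sp1 letters were present in 53.4% of the members' windows, 60.1% of those of genes tested and 35.7% of all promoters. A match describes the letters only and is not evidence of binding.

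The first question was whether loss of THAP1 changed the messenger RNA level of mitochondrial ribosomal proteins in each region. No member passed an adjusted p of 0.05 in limma's test in cerebellum, cortex or striatum, where 0.234%, 0.549% and 0.540% of the 11114 genes tested did so. At an unadjusted p under 0.05, 1 member was higher and 2 were lower in knockout cerebellum, against 2.93% and 2.45% of all genes. In knockout cortex 1 was higher and 11 were lower, which is 15.5% of the members on the lower side, against 5.82% of all genes higher and 4.72% lower. In knockout striatum 4 were higher and 0 lower, against 3.71% and 3.69% of all genes. Members are not independent of each other, so these shares are a description.

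Relative to the median of all genes, most members had a slightly lower knockout minus control difference in cortex and a slightly higher one in striatum, with quantile scaling and with median scaling of the arrays (45 of 71 below it in cortex and 56 of 71 above it in striatum with the second). The median knockout minus control difference over the 71 members was -0.016 on the log2 scale in cerebellum, where the median of all genes was 0.0064. In cortex the members' median was -0.11 and that of all genes 0.0074, and 52 of 71 members lay below the median of all genes, although with median scaling of the arrays the members' cortex median itself turned positive (0.043, beside 0.13 for all genes). In striatum the members' median was 0.094 and that of all genes 0.017, with 54 of 71 members above the median of all genes. Set against the median of all genes, the members' median was therefore -0.12 in cortex and 0.076 in striatum with the main scaling, and -0.084 and 0.11 with median scaling. Without striatum control array 3 the striatum median was 0.036.

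The same could be seen on single arrays. The mean of the 71 members was 9.04 ± 0.05 in knockout cortex and 9.13 ± 0.02 in control cortex (normalized log2 intensity, SD, n = 4 each), and the highest knockout array and the lowest control array both lay at 9.09. It was 9.02 ± 0.06 in knockout striatum and 8.95 ± 0.07 in control striatum, with overlapping arrays. In cerebellum it was 9.02 ± 0.06 in knockout and 9.04 ± 0.03 in control tissue, also with overlap.

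**Figure D1:**
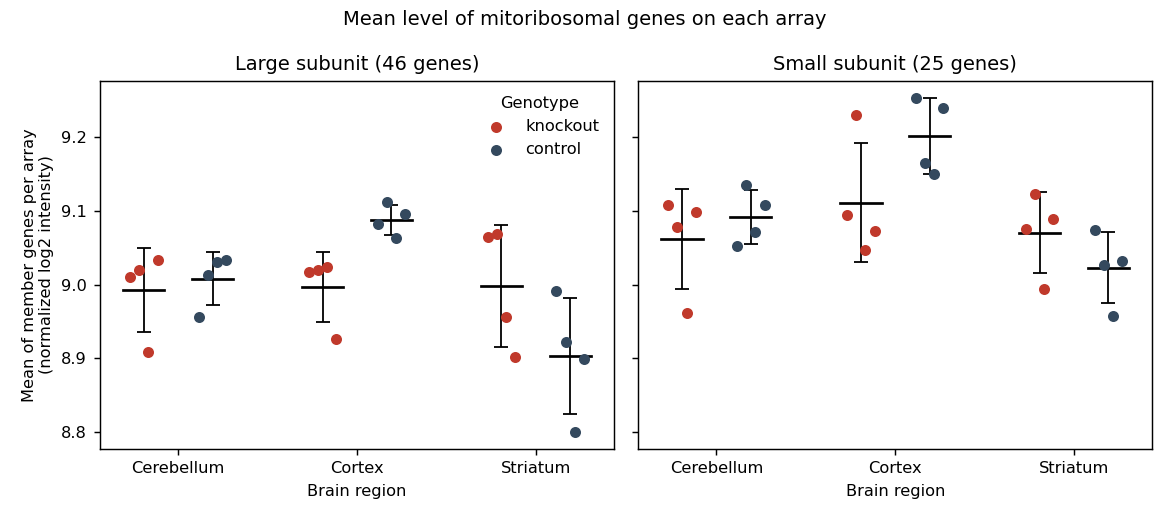
Mean normalized log2 intensity of the 46 large subunit genes (left) and the 25 small subunit genes (right) on each of the 24 arrays, by brain region, with knockout arrays left of control arrays; bars are the group mean and SD (n = 4 arrays). The cortex groups do not overlap for the large subunit (knockout lower with quantile scaling, while with median scaling the cortex median over members turns positive), and they overlap for the small subunit in cortex and for both subunits in striatum.

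The members whose arrays did not overlap between the genotypes were counted next. In cortex, 7 members had all 4 knockout arrays below all 4 control arrays and 1 had them above, where 3.73% of all genes were separated downward and 4.44% upward. The 7 lower members were Mrpl14, Mrpl17, Mrpl28, Mrpl43, Mrpl54, Mrps15 and Mrps34, which is 9.86% of the members, and the higher one was Mrpl47. In cerebellum 1 member (Mrpl36) was separated upward and 0 downward, against 1.58% and 1.19% of all genes. In striatum no member was separated in either direction, where 2.02% of all genes were separated upward and 1.76% downward.

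The difference was also taken for each subunit, and a difference between the subunits was not tested. The median knockout minus control difference in cortex was -0.12 over the 46 large subunit genes and -0.079 over the 25 small subunit genes. In striatum it was 0.095 for the large and 0.083 for the small subunit, and in cerebellum -0.026 for the large and 0.026 for the small subunit. The mean of the large minus the mean of the small subunit genes on each array ranged from -0.21 to -0.024 in knockout cortex and from -0.17 to -0.054 in control cortex. The same balance ran from -0.19 to -0.011 in knockout striatum and from -0.16 to -0.083 in control striatum, and from -0.099 to -0.053 in knockout cerebellum and -0.12 to -0.040 in control cerebellum, so the genotypes overlapped in every region. Genes with a bacterial homologue (42 measured) and genes found only in mitochondria (29 measured) had median differences of -0.12 and -0.081 in cortex and of 0.040 and 0.12 in striatum. In striatum 26 of the 29 mitochondria-specific genes lay above 0, as did 28 of the 42 with a bacterial homologue, and the difference between these classes was not tested.

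**Figure D2:**
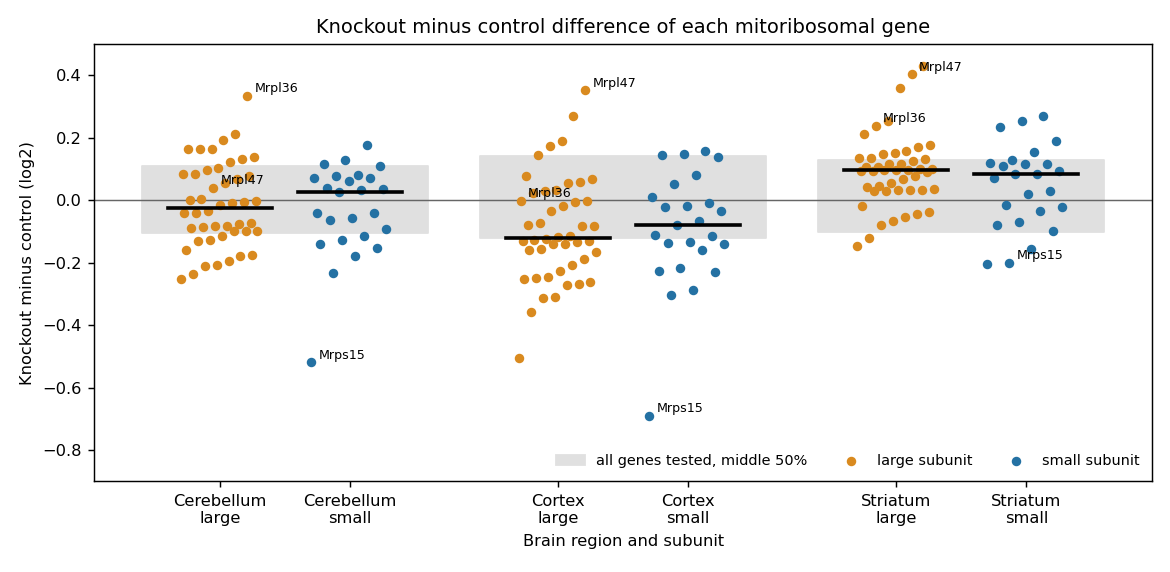
Knockout minus control difference (log2) of each measured mitoribosomal gene in 3 brain regions, with large subunit genes left of small subunit genes; points are genes, black bars the median over genes, and the grey band the middle 50% of all genes tested. Most points lie below 0 in cortex (with median scaling of the arrays the members' cortex median is 0.043) and above 0 in striatum, and nearly all lie within 0.4 of 0.

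Mrpl47, the relative of the bacterial protein L29 at the exit of the tunnel through which the new chain leaves, was the only member past the threshold, and only in the mean of the knockout differences over the regions. In cortex it measured 9.10, 9.13, 8.91 and 8.98 on the knockout arrays, against 8.78, 8.75, 8.56 and 8.63 on the control arrays (normalized log2 intensity). Every knockout cortex array lay above every control cortex array, with a difference of 0.35 (SE 0.12, adjusted p = 0.190 in limma's test). In striatum it measured 8.92, 9.10, 9.10 and 9.04 in knockouts and 8.95, 8.71, 8.26 and 8.64 in controls, a difference of 0.40 (adjusted p = 0.155) in which 1 control array lay above the lowest knockout array. In cerebellum the knockout arrays (9.01, 9.01, 8.88 and 9.01) all lay within the range of the control arrays (9.05, 9.02, 8.90 and 8.79), and the difference was 0.040. Averaged over the regions, Mrpl47 rose by 0.26 on the log2 scale (SE 0.067, adjusted p = 0.0294), a p that can be too small where arrays of different regions share a mouse. With median scaling the mean effect was 0.31 and did not pass (adjusted p = 0.148).

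That is 1 of 71 members past the threshold in the mean effect, or 1.41%, where 2.31% of all genes passed it, so the count is no larger than the background. The call on Mrpl47 rested on 1 of its 2 kept probes. The other probe, detected on 15 arrays, had differences of -0.27 in cerebellum, -0.17 in cortex and 0.080 in striatum, with a mean of -0.12 (adjusted p = 0.766 over probes), and with the mean of both probes the gene's mean effect was 0.072 (adjusted p = 0.751). Of the 20 members with several kept probes, all probes of the gene agreed in direction for 12 in the mean effect, 13 in cortex, 14 in striatum and 10 in cerebellum. With 1 array left out in turn, the adjusted p of the Mrpl47 mean effect ran from 0.0081 to 0.056 and stayed under 0.05 in 18 of 24 cases. Without cerebellum knockout array 22, cortex knockout array 13 or 14, cortex control array 11 or 12, or striatum knockout array 7, the p was above 0.05.

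Mrps15, the relative of bacterial S15, which binds the ribosomal RNA of the small subunit, had the largest difference of any member and the opposite sign. In cortex it measured 6.29, 6.67, 6.22 and 6.44 in knockouts, against 7.19, 7.07, 6.81 and 7.31 in controls, and the groups did not overlap (difference -0.69, SE 0.23, adjusted p = 0.189). In cerebellum the knockout arrays were at 6.53, 6.11, 5.61 and 6.50 and the control arrays at 6.41, 7.16, 7.07 and 6.18 (difference -0.52, adjusted p = 0.843). The cerebellum groups overlapped, as 2 control arrays lay among the knockout arrays. In striatum the values were 6.33, 6.68, 6.07 and 6.72 in knockouts and 6.42, 6.30, 7.08 and 6.81 in controls, with a difference of -0.20. The mean effect over the regions was -0.47 (SE 0.13), and its adjusted p of 0.0528 did not pass the threshold, while it ran from 0.0224 to 0.106 with 1 array left out and was under 0.05 in 6 of 24 cases.

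At an unadjusted p under 0.05 in the mean effect, 4 members (5.63%) were higher and 5 (7.04%) lower, against 8.41% and 5.98% of all genes. Mrpl47 alone passed after adjustment. Besides Mrpl47, the higher ones were Mrpl36, Mrps22 and Mrpl57, and the lower ones were Mrps15, Mrps10, Mrps26, Mrpl3 and Mrpl18. Mrpl36, whose bacterial relative L36 is a small protein of the large subunit, measured 10.47, 10.46, 10.44 and 10.53 in knockout cerebellum and 10.24, 10.22, 9.93 and 10.18 in control cerebellum. These groups did not overlap (difference 0.33, SE 0.12, adjusted p = 0.623), while the difference was 0.24 in striatum and close to 0 in cortex, and the mean effect was 0.19 (adjusted p = 0.145). Mrps22, a mitochondria-specific small subunit protein that is mutated in a human mitochondrial disease, had differences of 0.11, 0.16 and 0.27 in cerebellum, cortex and striatum (mean effect 0.18, adjusted p = 0.146). Mrpl57, a mitochondria-specific large subunit protein, had differences of 0.16, 0.27 and 0.36 (mean effect 0.26, adjusted p = 0.200). For both genes the knockout mean was the higher one in all 3 regions, and neither passed the threshold.

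**Figure D3:**
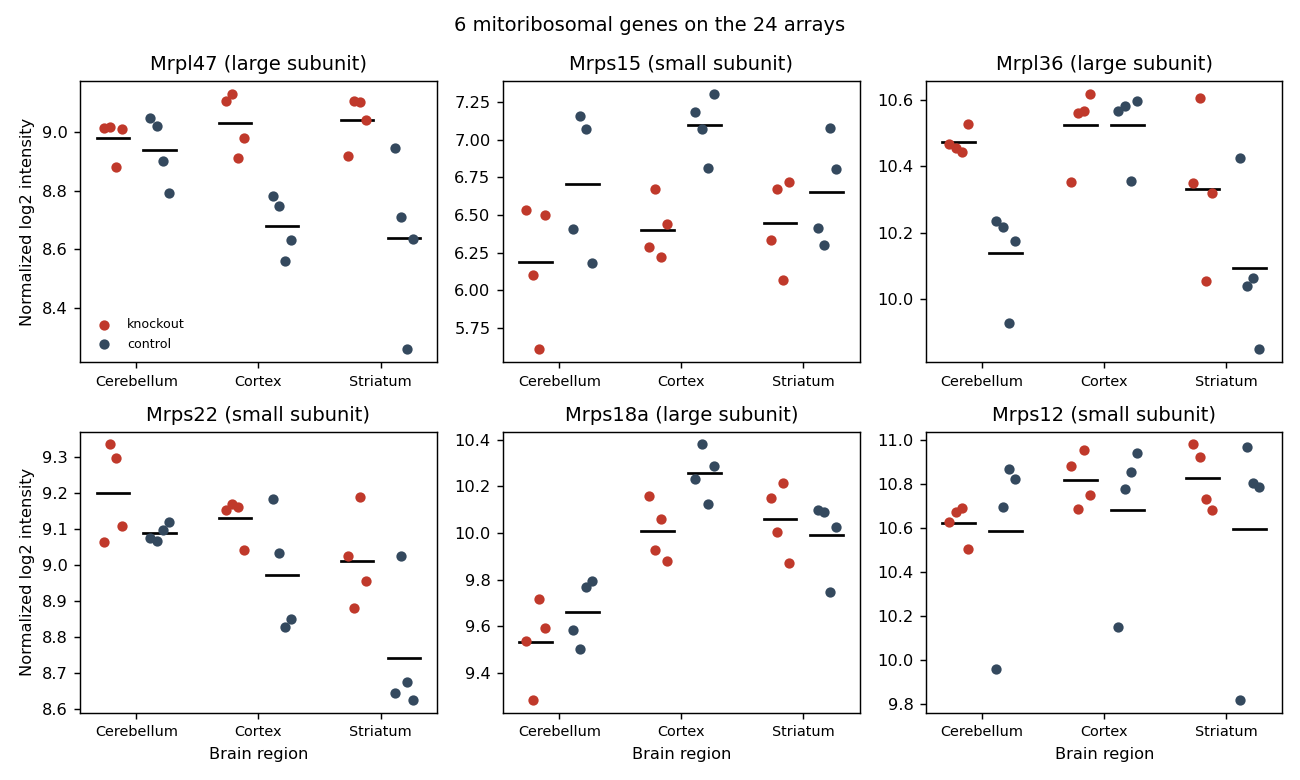
Normalized log2 intensity of 6 mitoribosomal genes on each of the 24 arrays, by brain region, with knockout arrays left of control arrays; points are arrays and bars group means (n = 4). The cortex groups do not overlap for Mrpl47 (knockout higher) and Mrps15 (knockout lower), the cerebellum groups do not overlap for Mrpl36, and for Mrps12 a single control array in each region lies far below the rest.

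Apart from Mrpl47, the 11 members with an unadjusted p under 0.05 in knockout cortex all lay below the controls, and none passed after adjustment. Mrpl3, the relative of L3 near the catalytic centre of the large subunit, measured 9.70 ± 0.11 in knockout and 10.01 ± 0.20 in control cortex (difference -0.31, adjusted p = 0.277), and its second probe had a difference of -0.062. Mrps26, a mitochondria-specific protein of the small subunit, averaged 9.74 ± 0.09 in knockout and 10.03 ± 0.15 in control cortex (difference -0.29, adjusted p = 0.318), with -0.14 on its second probe. Mrpl54, a mitochondria-specific protein of the large subunit, measured 9.79, 9.65, 9.70 and 9.38 in knockout and 9.96, 9.97, 9.91 and 9.92 in control cortex (difference -0.31, adjusted p = 0.378). The control values of Mrpl54 lay close together and all above the knockout values, while in striatum its knockout mean was the higher one (10.00 ± 0.28 against 9.85 ± 0.08). Mrpl52, a mitochondria-specific large subunit gene, had a cortex difference of -0.51 (adjusted p = 0.428), second in size to Mrps15.

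In striatum the 4 members with an unadjusted p under 0.05 were Mrpl47, Mrps31, Mrps22 and Mrpl36, all higher in knockouts, and again none passed after adjustment. Mrps31, a mitochondria-specific small subunit protein, measured 9.64, 9.76, 9.83 and 9.88 in knockout striatum and 9.65, 9.54, 9.38 and 9.53 in control striatum (difference 0.25, adjusted p = 0.478). Its other probes had differences of 0.36 and 0.11, so all 3 had the same sign. Mrpl45 had the largest striatum difference, 0.43 (adjusted p = 0.773), but it was close to background, with detection on 4 of 4 knockout and 1 of 4 control arrays. In cerebellum, Mrpl27, whose bacterial relative L27 reaches the catalytic centre, averaged 9.59 ± 0.13 in knockout and 9.85 ± 0.13 in control tissue (difference -0.25, adjusted p = 0.896). Mrpl18, related to the bacterial protein L18 of the large subunit, and Mrpl54 had cerebellum differences of -0.20 and -0.21 that did not pass (adjusted p = 0.999 for both).

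Members with special places in the ribosome did not pass in any knockout comparison. Mrpl12 forms the stalk that recruits translation factors, and its differences were 0.16 in cerebellum, -0.13 in cortex (0.036 with median scaling) and 0.21 in striatum. Mrps18a and Mrps30, which carry small subunit names but sit in the large subunit, had cortex differences of -0.25 each (adjusted p = 0.424 and 0.477) and striatum differences of 0.07 and 0.16. Without striatum control array 3 the Mrps18a striatum difference was -0.014. Mrps12, at the decoding centre of the small subunit, differed by 0.038 in cerebellum, 0.14 in cortex and 0.23 in striatum, and the sign rested on 1 control array in each region.

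For Mrps12 the knockout arrays lay between 10.50 and 10.98 in all regions. Its control arrays measured 9.96, 10.69, 10.87 and 10.82 in cerebellum, 10.15, 10.78, 10.85 and 10.94 in cortex and 9.82, 10.97, 10.80 and 10.79 in striatum. In each region 1 control array (17 in cerebellum, 9 in cortex and 1 in striatum) lay far below the other controls, each the lowest-numbered array of its group. Without that array the difference was -0.17 in cerebellum, -0.039 in cortex and -0.025 in striatum. The Mrps12 probe was its only kept one. The labels do not say whether these 3 arrays come from the same mouse, so they may not be 3 separate cases, which was not tested.

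Whether the knockout difference itself changed from region to region was tested as an interaction. No member passed for cortex minus cerebellum, striatum minus cerebellum or cortex minus striatum, where 0.00900% of all genes, a single gene each, passed. At an unadjusted p under 0.05, 4 members (5.63%) were lower and 0 higher for cortex minus striatum, against 2.07% and 2.29% of all genes. The median was -0.17 over members and -0.0037 over all genes. The count was 1 lower (1.41%, against 1.9% of all genes) for cortex minus cerebellum (median -0.070). For striatum minus cerebellum (median 0.10) it was 2 higher (2.82%, against 1.55% of all genes). Mrpl54 was among those of cortex minus striatum, with an interaction of -0.46 (SE 0.18, adjusted p = 1.00). The opposite medians in cortex and striatum are thus not shown to differ gene by gene.

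The next question was how the level of each gene varied between the brain regions of control mice. The members had a median range of 0.32 over the 3 group means, and 32 of 71 members had at least 1 comparison past the threshold. That range and count were not computed over all genes. In the single comparisons below, 15, 18 and 13 of the 71 members were called, against 5073, 4582 and 3234 of the 11114 genes tested. The highest control mean lay in cortex for 41 members, in cerebellum for 24 and in striatum for 6. Only 17, 13 and 2 of these had a called difference in any of the 3 region comparisons, so for the others the order rests on differences that did not pass. These counts were not computed over all genes either. The commonest order, in 23 members, had cortex highest and striatum lowest. Cortex highest with cerebellum lowest was found in 18 members and cerebellum highest with striatum lowest in 17.

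Control cerebellum against control cortex gave 3 members higher and 12 lower in cerebellum, which is 4.23% and 16.9% of the members, against 23.9% of all genes higher and 21.8% lower. Among those lower in cerebellum, Mrpl11, a protein at the base of the stalk, averaged 8.68 ± 0.21 in cerebellum and 9.30 ± 0.09 in cortex (difference -0.62, adjusted p = 0.00026). Mrps18a was at 9.59, 9.50, 9.77 and 9.80 in control cerebellum and 10.23, 10.38, 10.12 and 10.29 in control cortex (difference -0.59, adjusted p = 6.25e-05). Both genes were separated without overlap, as were Mrpl3 (-0.51, with -0.18 on its second probe) and Mrps18b (-0.44, with -0.56 on its second probe), a paralogue of Mrps18a that sits in the small subunit. Members higher in cerebellum were Mrps31 (0.41, adjusted p = 0.0012), the mitochondria-specific large subunit gene Mrpl42 (0.36, adjusted p = 0.037) and Mrpl15. The other kept probes of Mrps31 had differences of 0.16 and 0.27 and did not pass (adjusted p = 0.319 and 0.101 in limma's test over probes). With median scaling 6 members passed in place of 15, and the adjusted p was 0.102 for Mrpl42 and 0.052 for Mrps18b. Mrpl42 also did not pass with the authors' processed values (adjusted p = 0.061) or with no filter on dim probes (adjusted p = 0.058).

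Mrpl15, related to the bacterial large subunit protein L15, was detected on all 4 cerebellum arrays of each genotype and on no cortex array. Its control cerebellum arrays measured 5.29, 5.73, 5.25 and 5.12, against measured values of 4.72, 4.30, 4.41 and 4.67 in control cortex, where it was not well above background. The level in cerebellum was at least 1.51-fold higher than in cortex in knockouts and at least 1.26-fold higher in controls, with adjusted p of 9.96e-05 and 0.00021 from the measured values. With the authors' processed values the control difference was 0.23 and did not pass (adjusted p = 0.130). The bound is the cerebellum mean over the mean, per cortex array, of the lowest detected signal or the probe's own signal where that was higher. In striatum it was detected on 2 of 4 arrays of each genotype.

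Control cerebellum against control striatum gave 15 members higher and 3 lower in cerebellum (21.1% and 4.23% of members), against 20.8% of all genes higher and 20.5% lower. Mrps21, related to the bacterial small subunit protein S21, measured 10.52, 10.23, 10.42 and 10.19 in cerebellum and 9.80, 9.65, 9.83 and 10.08 in striatum (difference 0.50, adjusted p = 0.0021). Mrpl42 (0.48, adjusted p = 0.0061) and Mrps28 of the small subunit (0.47, adjusted p = 0.011) were also higher in cerebellum with no overlap of the arrays. So was Mrpl15 (0.60, adjusted p = 0.0056), which was detected on only 2 of 4 striatum control arrays and did not pass with the authors' processed values (0.23, adjusted p = 0.140). Lower in cerebellum were Mrps17, Mrpl10 and Mrps18a, by -0.48, -0.34 and -0.33, and their arrays overlapped.

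Control cortex against control striatum had a single direction, with 13 members higher in cortex (18.3%) and 0 lower, against 13.1% of all genes higher and 16.0% lower. The median difference was 0.21 over the members and -0.0043 over all genes, and 58 of 71 members lay above the median of all genes. Mrps18c, the paralogue most like bacterial S18, averaged 8.86 ± 0.17 in cortex and 8.34 ± 0.21 in striatum (difference 0.52, adjusted p = 0.037). Mrpl20, whose bacterial relative is needed to assemble the large subunit, differed by 0.48 (adjusted p = 0.047). Mrpl22, which lines the exit tunnel in bacteria, also differed by 0.48 (adjusted p = 0.014), with 8.93, 8.59, 8.92 and 8.93 in cortex and 8.32, 8.18, 8.47 and 8.47 in striatum. Mrps30 measured 10.02, 10.47, 10.14 and 10.19 in cortex against 9.64, 9.73, 9.69 and 9.83 in striatum (difference 0.48, adjusted p = 0.0030). Some of these calls lay near the threshold. Mrpl20 did not pass with the authors' processed values, with the mean of probes or with no filter on dim probes (adjusted p = 0.077, 0.0503 and 0.075), and it passed in 13 of 24 fits with 1 array left out. Mrps18c did not pass with the authors' values or with no filter on dim probes (adjusted p = 0.065 and 0.059), nor did Mrpl22 with median scaling (adjusted p = 0.055). Without striatum control array 2 or 4 the count was 8 or 7 in place of 13.

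The same region comparisons were made in knockout arrays, which share no array with the controls. Knockout cerebellum against knockout cortex gave 6 members higher and 6 lower, where 23.5% and 20.9% of all genes were higher and lower. Of the 15 members called in controls, 4 were called in knockouts in the same direction, against 81.2% over all genes called in controls. Here and below, those genes were not matched to the members in size of difference. Mrpl11 (-0.58), Mrps18a (-0.47), Mrps18b (-0.35) and Mrpl15 were called in both genotypes. Knockout cerebellum against knockout striatum gave 7 higher and 6 lower, with 20.4% and 21.1% of all genes, and 9 of the 18 members called in controls were called again, against 82.1% over all genes. With median scaling 8 in place of 13 members passed for knockout cerebellum against knockout striatum.

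Knockout cortex against knockout striatum gave 1 member higher (Mrpl1, 0.46) and 5 lower (Mrpl52, Mrps6, Mrpl54, Mrpl38 and Mrpl10), against 11.3% and 13.9% of all genes. The second kept probe of Mrpl1, detected on 6 arrays, had the opposite sign in this comparison. None of the 13 members called in controls passed in knockouts, although all 13 kept the direction, while 65.3% of all genes called in controls passed again. The 13 were chosen by their control values, and the part of that choice in their smaller knockout differences was not tested. The median over members was 0.041 in knockouts and 0.21 in controls. The interaction given above, which tests the change itself, was passed by no member. The control cortex and control striatum arrays enter both the region comparison in controls and the knockout comparisons of these regions, so the 2 are not independent. The knockout count fell to as few as 1 when single arrays were left out, with 1 called without striatum knockout array 5, 2 without cortex knockout array 14 or 16 or striatum knockout array 8, and 3 without cortex knockout array 13 or striatum knockout array 6 or 7. With median scaling, or with no filter on dim probes, it was 1.

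**Figure D4:**
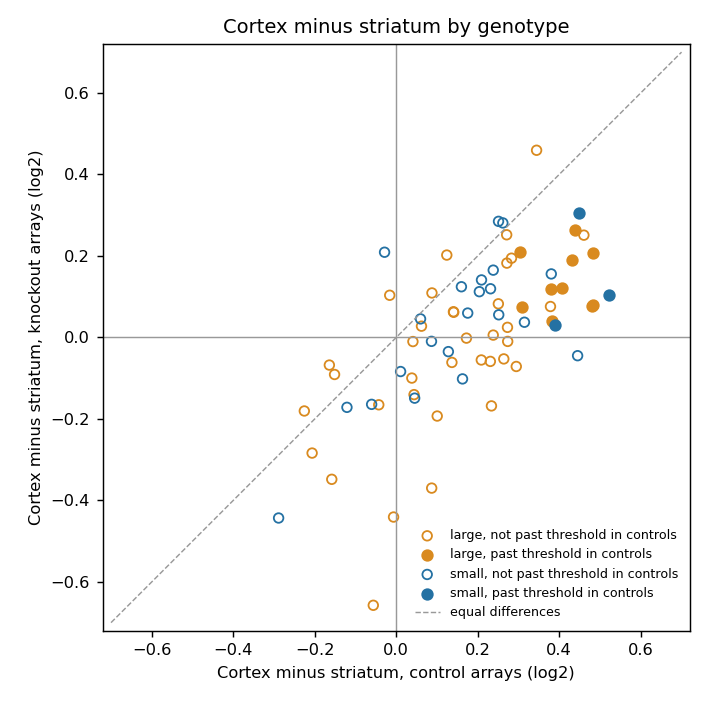
Cortex minus striatum difference (log2) of each measured mitoribosomal gene in knockout arrays (vertical axis) and control arrays (horizontal axis); orange marks the large and blue the small subunit, filled points are the 13 members past the threshold in controls (chosen by their control values), and the dashed line marks equal differences. All filled points lie above 0 and below the dashed line, with a median over all members of 0.041 in knockouts and 0.21 in controls.

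Gene lists of related machines were described in the same way. Nuclear genes of the respiratory chain and the ATP synthase, the complexes that receive the products of the mitochondrial ribosome, had 74 of 79 members measured. Their median knockout minus control difference was 0.018 in cerebellum (-0.094 with median scaling), -0.096 in cortex (-0.0018 with median scaling) and 0.031 in striatum, with 0 past the threshold in each region and, at an unadjusted p under 0.05, 2 higher and 14 lower in cortex. Cytosolic ribosomal proteins, which build the ribosome outside mitochondria, had 52 of 57 members measured, with medians of 0.019, -0.040 and -0.026 and 0 past the threshold, all 3 of which turned sign with median scaling (-0.079, 0.077 and 0.12). At an unadjusted p under 0.05, 3 of them were higher and 2 lower in cortex, where 5.82% of all genes were higher and 4.72% lower. Between control regions the lists differed in sign. For cerebellum minus cortex the median was -0.11 over mitoribosomal genes, 0.14 over respiratory chain genes and -0.14 over cytosolic ribosomal genes, and for cerebellum minus striatum it was 0.065, 0.30 and -0.22. With median scaling the signs were as before, at -0.089, 0.043 and -0.25 for cerebellum minus cortex and 0.17, 0.40 and -0.14 for cerebellum minus striatum, but the median of all genes for cerebellum minus cortex was then 0.074, above that of the respiratory chain.

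**Figure D5:**
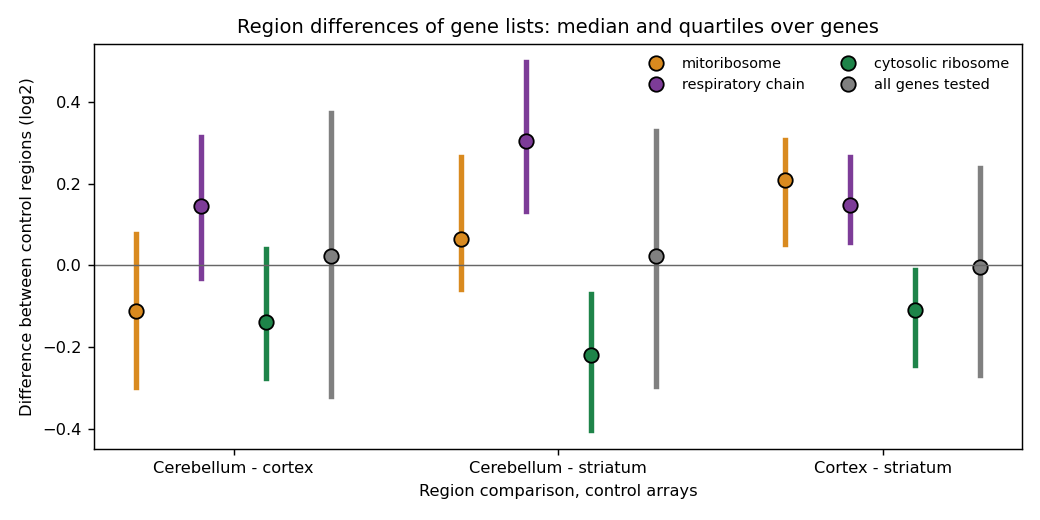
Differences between regions of control arrays (log2) for 4 gene lists, with the first-named region minus the second; points are medians and bars the quartiles over genes. Mitoribosomal genes have a median of -0.11 for cerebellum minus cortex, where respiratory chain genes have 0.14 (-0.089 and 0.043 with median scaling), and both are above 0 for cortex minus striatum (0.21 and 0.15).

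In numbers of genes, 25 respiratory chain genes were higher and 1 lower in control cerebellum than in control cortex, and 38 were higher and 1 lower than in control striatum. For cytosolic ribosomal proteins the counts were 3 higher and 10 lower against cortex, and 1 higher and 18 lower against striatum (1 higher and 6 lower with median scaling). With that scaling 6 respiratory chain genes in place of 25 were higher in cerebellum than in cortex. Mitoribosomal genes had 3 higher and 12 lower against cortex and 15 higher and 3 lower against striatum (2, 4, 14 and 0 with median scaling). Of all genes, 23.9% were higher and 21.8% lower against cortex, and 20.8% and 20.5% against striatum. The 12 lower (16.9% of members) and 15 higher (21.1%) were thus near or below these shares, as were the 10 lower cytosolic genes (19.2%). In sign of the median, mitoribosomal genes went with the cytosolic list for cerebellum minus cortex and with the respiratory list for cerebellum minus striatum. For cortex minus striatum the median was 0.21 over mitoribosomal, 0.15 over respiratory chain and -0.11 over cytosolic ribosomal genes. With median scaling these were 0.24, 0.32 and 0.090, so the cytosolic sign turned. Whether the lists differ was not tested.

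Factors that build and serve the mitochondrial ribosome were taken from lists by function. None of the 9 measured translation factors, the 20 assembly and ribosomal RNA modification factors and the 16 genes of mitochondrial transcription and RNA processing was past the threshold in a knockout comparison. In cortex 0 of the translation factors had an unadjusted p under 0.05, while 2 assembly factors were lower and 3 transcription genes were higher and 1 lower. Of all genes, 5.82% were higher and 4.72% lower at that p, and 2.31% were past the threshold in the mean effect. Among 15 genes that charge mitochondrial transfer RNAs, Aars2, the mitochondrial alanyl-tRNA synthetase, rose by 0.54 in the mean effect (SE 0.10, adjusted p = 0.0019 in limma's test). Where arrays of different regions share a mouse, that p can be too small. It averaged 6.20 ± 0.26 in knockout and 5.64 ± 0.25 in control cerebellum, 5.56 ± 0.17 and 4.95 ± 0.37 in knockout and control cortex, and 5.63 ± 0.14 and 5.18 ± 0.06 in knockout and control striatum. Its difference was 0.56, 0.62 and 0.45 in the 3 regions, and no single region passed (adjusted p = 0.427, 0.101 and 0.452). The control means of Aars2 in cortex and striatum lay close to those of Mrpl39 (5.30 and 4.93), a gene near background. Its detection and the other settings are not given here.

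In control regions these factors moved in both directions. Polrmt, the mitochondrial RNA polymerase, was higher in cerebellum than in cortex by 0.82 (adjusted p = 3.18e-06) and than in striatum by 0.57. Rbfa, which matures the small subunit, was lower in cerebellum than in cortex by -0.86 (adjusted p = 3.23e-06), and Ears2, the glutamyl-tRNA synthetase, by -0.84 (adjusted p = 1.24e-05). Cortex exceeded striatum for Rbfa (0.43, adjusted p = 0.013) and for Mrm1, which modifies the ribosomal RNA of the large subunit (0.63, adjusted p = 0.0030). Gfm2, which helps to recycle the ribosome, was lower in cortex than in striatum (-0.39, adjusted p = 0.021).

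Some mitoribosomal genes share a promoter region with a gene on the opposite strand, a comparison that was chosen after values were seen. Such a neighbour, with its start at most 1000 bases away, was found for 26 of 67 members with a listed promoter (38.8%), against 20% of genes tested and 13.6% of all genes with a listed promoter, and both genes were measured in 15 distinct pairs. The neighbours of these members gave 0 calls in limma's test in any knockout comparison, with 1, 2 and 1 at an unadjusted p under 0.05 in cerebellum, cortex and striatum. Of all genes, 2.93% were higher and 2.45% lower at that p in cerebellum, 5.82% and 4.72% in cortex, and 3.71% and 3.69% in striatum. Partners had opposite signs in 8 of 15 pairs in cerebellum, 8 in cortex and 10 in striatum, and such counts were not computed for other gene pairs. Mrpl47 and Ndufb5, a subunit of respiratory complex I, start 308 bases apart. In cortex Ndufb5 measured 8.20, 8.14, 8.13 and 7.75 in knockouts and 8.64, 8.57, 8.37 and 8.86 in controls, without overlap (difference -0.55, adjusted p = 0.381). Of all genes, 3.73% were separated downward in cortex. In the same arrays Mrpl47 was on the higher side by its brightest probe, while its second kept probe had a cortex difference of -0.17, the same sign as Ndufb5. In striatum the Ndufb5 difference was -0.032, and in cerebellum it was 0.0013.

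The pair Mrps11 and Mrpl46, a small and a large subunit gene, starts 42 bases apart, within the Mrps11 window shown above. Mrps11 had knockout minus control differences of 0.080 in cerebellum, -0.079 in cortex and -0.099 in striatum. Mrpl46 had -0.0054, -0.13 and 0.10. None of these passed the threshold, and the pair had the same sign in cortex only.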

How the data were processed

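RNA from frozen mouse brain tissue was extracted with TriZol, labelled with an Illumina TotalPrep kit and measured on Illumina bead arrays, per the labels' protocols. BeadStudio is named in the submitters' processing notes, without a version. The deposited raw table gave a signal intensity and a detection p-value per probe for 25697 probes on 24 arrays, and 49.2% of the detection p-values were exactly 0. A second deposited table held linear intensity processed by the authors, with background subtraction and normalization not given in the sources used here.

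Raw signals were background-corrected with limma's nec (limma 3.58.1, R 4.3.3), using the detection p-values and an offset of 16, then quantile-normalized and put on the log2 scale. A probe entered the fit where its detection p was below 0.01 on 4 or more arrays (14994 probes), and the brightest probe stood for each of 11114 genes. Genes were named through the platform annotation, which paired 23978 probes with 1 gene and 1719 with none. A linear model of 6 group means over all 24 arrays was fitted with lmFit and eBayes (trend, residual df 18), with Benjamini-Hochberg adjustment over all genes and a threshold of 0.05. Named were members past the threshold in a knockout comparison, the 5 with the smallest p in each, the largest non-overlapping region differences, and Mrpl12, Mrps12, Mrps18a and Mrps30; other names were chosen after their values were seen. The members, lists and tests were chosen with earlier results of these data known.

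On simulated cortex data over 11114 genes the fit recovered 34.3% of 67 genes changed by 0.5 on the log2 scale, 88.1% of 67 changed by 1 and 100% of 66 changed by 2, with 4 false calls. Changes smaller than 0.5, the size of nearly all knockout differences of the members, were not simulated. The number of arrays limits the precision. Promoter motifs were searched with Python 3.11.15. Alternatives were no background correction, median scaling, the authors' processed values (floored at 16), the mean of probes, other filters, array weights, fits of only the groups compared, and leaving out each array.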

Additional observations from a re-analysis of the deposited data

Results flagged for a closer look

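Among 162 combinations of a named item and a group of 4 arrays, 9 had 1 array that stood far from the other 3 of its group, and chance gives about 1 in 20. In control arrays, Mrps12 was at 9.82 on striatum array 1, where the others lay between 10.79 and 10.97, and Mrpl36 was at 10.36 on cortex array 11, below others between 10.56 and 10.60. Mrpl22 was at 8.59 on control cortex array 10 (others 8.92 to 8.93), and Mrps22 was at 9.03 on control striatum array 2, above others between 8.63 and 8.68.

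In knockout arrays, Mrpl47 was at 8.88 on cerebellum array 23 (others 9.01), Mrps22 at 9.04 on cortex array 16 (others 9.15 to 9.17) and Mrps18c at 8.91 on cortex array 14, above others between 8.42 and 8.49. The mean of all members was 8.93 on knockout cerebellum array 23, where the others lay between 9.04 and 9.06. The mean of the large subunit genes was 8.93 on knockout cortex array 16, below others at 9.02. What sets these arrays apart was not tested.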

How the results depend on the processing

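No paired analysis was run, because the replicate numbers are not shared between the groups and no label says which arrays share a mouse. The low Mrps12 control arrays have the same rank by number in each region. Whether arrays of equal rank share a mouse was not tested, so the p-values take no account of it. Slide as a block was not run because no slide is given in the files. Among values of single named members, 357 kept direction and side of the threshold under settings other than leaving out an array, 14 lost and 3 gained the call, and 2 turned sign. With 1 array left out these numbers were 1088, 29, 7 and 4. The count of members past the threshold in the mean knockout effect, 1 with the main settings, was 2 with no background correction, 2 with detection on at least 12 arrays, 2 with array weights, 0 with median scaling and 0 with the mean of probes. With median scaling, 6 members passed for control cerebellum minus cortex, 8 for knockout cerebellum minus striatum and 1 for knockout cortex minus striatum, where 1 also passed with no filter on dim probes. The members' median with median scaling was -0.149 in cerebellum, 0.0428 in cortex and 0.191 in striatum for knockout minus control, and 0.172 for control cerebellum minus striatum, while with no background correction it was 0.149 for control cortex minus striatum. That scaling moved the median of all genes to -0.104, 0.127 and 0.0829 in the 3 knockout comparisons. The sign turned with it for Mrps12 in cerebellum (-0.0883) and Mrpl12 in cortex (0.0357).

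With 1 array left out, counts past the threshold ranged from 13 to 20 for control cerebellum minus cortex, 12 to 19 for control cerebellum minus striatum and 7 to 17 for control cortex minus striatum. In knockouts these ranges were 9 to 14, 12 to 15 and 1 to 6. For knockout minus control they were 0 to 0 in cerebellum and cortex, 0 to 1 in striatum (Mrpl47, without control array 1) and 0 to 2 in the mean effect. The mean-effect count was 2 without cerebellum knockout 21 or 24, cerebellum control 20 or striatum control 2, and 0 without cerebellum knockout 22, cortex knockout 13, cortex control 12 or striatum knockout 7. The medians ranged from -0.0347 to 0.010 in cerebellum, -0.116 to -0.0762 in cortex and 0.0358 to 0.133 in striatum for knockout minus control, and from -0.138 to -0.0736, 0.0402 to 0.0901 and 0.156 to 0.226 for the control regions in the order above. Mrps12 ranged from -0.170 to 0.131 in cerebellum, -0.0392 to 0.224 in cortex and -0.0245 to 0.358 in striatum, and Mrps18a from -0.0135 to 0.131 in striatum. The cause of these changes was not tested. Among the members, signal near background limits Mrpl15, Mrpl39 and Mrpl45.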
